A study of Mus musculus with 6 samples.

Results

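The genes described here are Sra1, which makes the steroid receptor RNA activator, and 8 genes of steroid hormone signalling: the receptors Nr3c1, Nr3c2 and Esr1, the coactivators Ncoa1, Ncoa2 and Ncoa3, and the glucocorticoid targets Fkbp5 and Tsc22d3. They were chosen by gene symbol, which gave 9 of the 51802 symbols listed and 69 of the 128603 transcripts listed. They were followed in bulk RNA-seq of whole cochleae from mice at 2 months of age. The libraries were 3 wildtype (replicates 3, 4 and 5) and 3 Pou4f3(Δ/+) (replicates 1, 2 and 3), with a C57/BL6J background in the labels. Pou4f3(Δ/+) mice are heterozygous knock-in mice that carry, on 1 allele of the hair cell transcription factor gene Pou4f3, an 8-bp deletion made to model a human deafness mutation, together with a C-to-T change that adds a stop codon. They were made through W4 embryonic stem cells with a targeting vector that held a floxed Neo cassette. The wildtype mice carry neither. No source used here says whether a library came from 1 animal or from several, so the p-values measure only the spread between these samples. The RNA came from the whole organ, and a lower level in a bulk sample can come from fewer cells of a type or from less RNA per cell, which cannot be told apart.

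Steroid hormones act largely through nuclear receptors, which rest in a complex with chaperones, bind the hormone, and then bind DNA together with coactivators. Sra1 is unusual among coactivators because the gene makes both an RNA that works without being translated and a protein, and splicing around the first intron separates coding from noncoding forms. In the cochlea, glucocorticoid and mineralocorticoid receptors are best known in the lateral wall, where steroids bear on ion transport and on the response to noise and inflammation.

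The summed counts per library ranged from 14295069 to 17696784. The values are FPKM, which are fragments scaled to transcript length and library total, and expected counts, which are estimates of how many fragments came from a transcript. Pou4f3 had 68, 72 and 88 counts in wildtype and 66, 97 and 52 in Pou4f3(Δ/+), to which both alleles contribute, so these give no check of the genotype labels. All the hair cell, stria, fibrocyte and neuron markers examined were above 0 in every library, as were markers of blood and bone marrow cells. Replicates 1 and 2 of Pou4f3(Δ/+) stood apart in these: summed B cell markers were 539 and 593 CPM (counts scaled to a common library total) there, against 295 in replicate 3 and 235 to 286 in wildtype. Values without one or both of those libraries are given beside the results that moved with them most.

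The 9 gene sums, which as FPKM can be compared between genes, spanned a wide range of levels. Tsc22d3 had the highest mean FPKM at 87.0, followed by Sra1 at 37.2, Nr3c1 at 26.0, Ncoa3 at 23.2 and Fkbp5 at 20.4. Ncoa2 at 14.7, Ncoa1 at 12.7, Nr3c2 at 5.87 and Esr1 at 2.81 made up the lower end. In the ranges over the 6 libraries, Tsc22d3 lay apart from the others, as did Nr3c2 and Esr1. Nr3c1 overlapped with Ncoa3, and Ncoa2 with Ncoa1. Fkbp5, at 13.7 to 42.5, overlapped with Sra1, Nr3c1, Ncoa3, Ncoa2 and Ncoa1.

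No gene sum of the 9 passed the test between genotypes. By edgeR's quasi-likelihood test with Benjamini-Hochberg adjustment, 0 of 17136 tested genes (0%) passed an adjusted p threshold of 0.05, while 1309 (7.64%) had an unadjusted p under 0.05, and DESeq2 called 64 (0.373%). Among the 9 genes, edgeR and DESeq2 called 0, and 1, Fkbp5, had an unadjusted p under 0.05. All 9 overlapped between genotypes in FPKM, against 2066 of the tested genes (12.1%) that did not overlap.

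**Figure D1:**
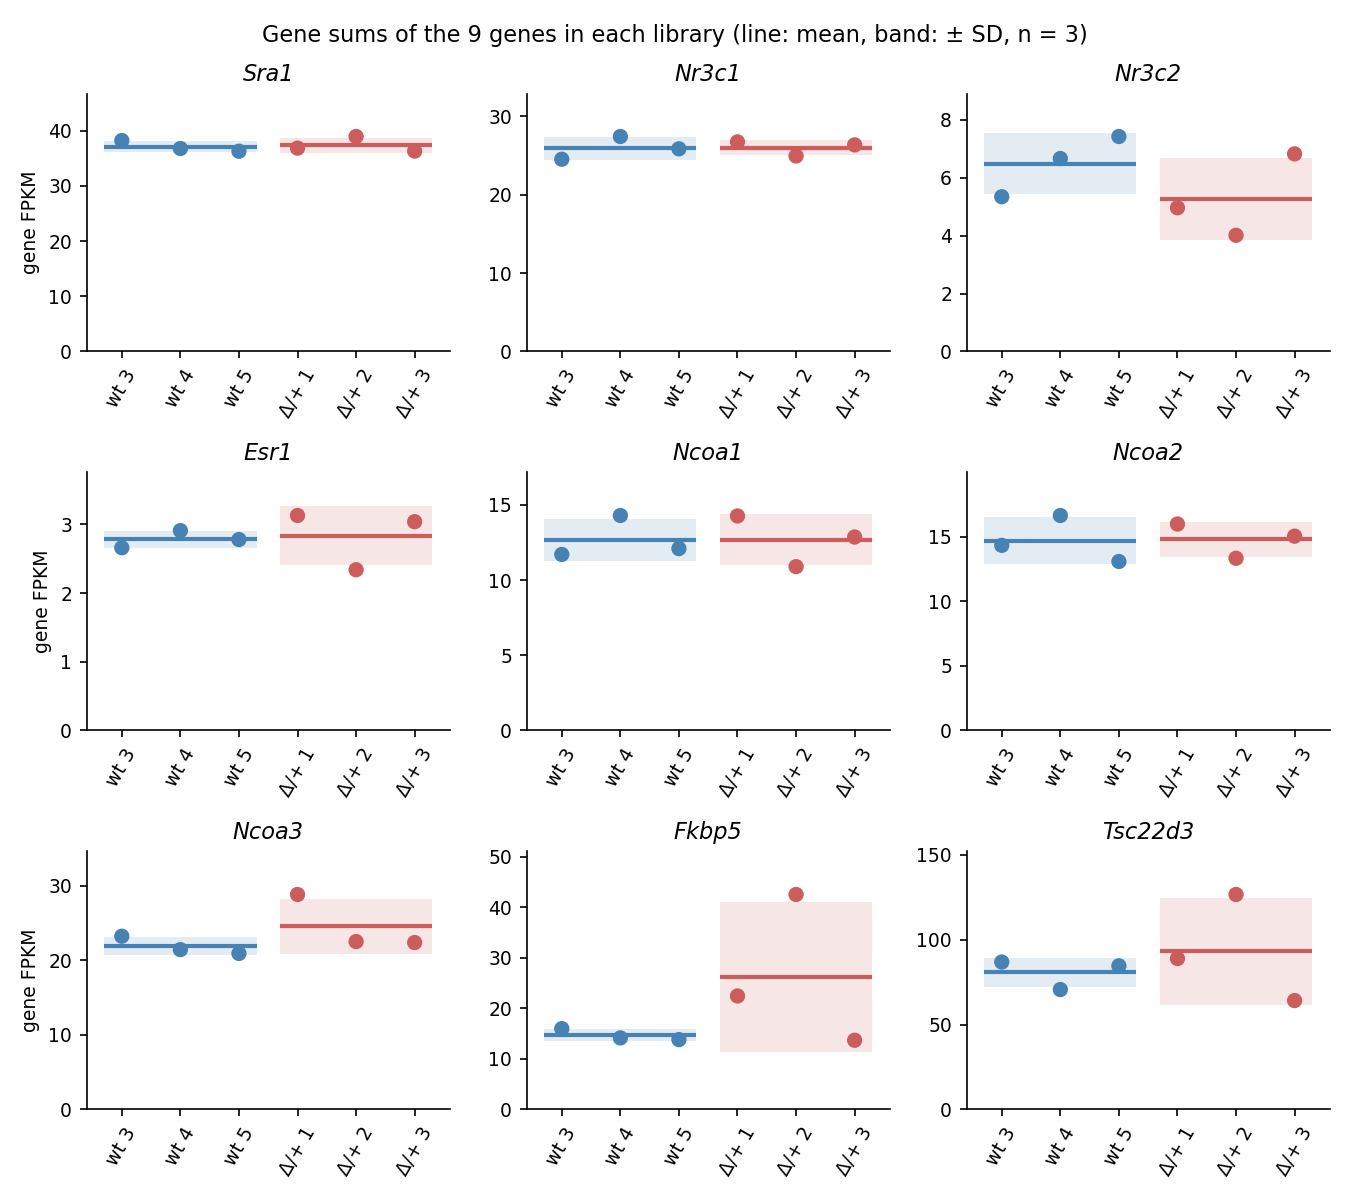
Gene FPKM (sum over the listed transcripts of a symbol, linear axis from 0) of the 9 genes in each wildtype (wt, blue) and Pou4f3(Δ/+) (Δ/+, red) library; lines are group means and bands are ± SD (n = 3). Sra1 and Nr3c1 lay nearly level across the 6 libraries, whereas Fkbp5 reached 42.5 and Tsc22d3 127 in Pou4f3(Δ/+) replicate 2 only.

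Sra1 (ENSMUSG00000006050) lies on chromosome 18 from 36666681 to 36670815 on the minus strand (GRCm38, GENCODE M21), 5.724 Mb from Pou4f3. The wildtype libraries (replicates 3, 4 and 5, always in this order) had a gene FPKM of 38.2, 36.8 and 36.3. The Pou4f3(Δ/+) libraries (replicates 1, 2 and 3) had 36.9, 39.0 and 36.3. The groups overlapped almost fully, at 37.1 ± 1.01 and 37.4 ± 1.40 (SD, n = 3). The edgeR log2 fold change was -0.03 (SE 0.08, adjusted p = 0.945). The range of its log2 CPM over the 6 libraries was 0.17, and 5.77% of the tested genes had a smaller range (median of all tested genes 0.47).

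Within the Sra1 sum, 2 transcripts had shares that did not overlap between the genotypes. Of the 6 transcripts listed under Sra1, Sra1-203, annotated as a target of nonsense-mediated decay, held the largest share of the FPKM in every library. Its share was higher in Pou4f3(Δ/+). Sra1-202, annotated as a retained intron form, held a smaller share there. The protein coding forms Sra1-201 and Sra1-204 overlapped in share between genotypes. The study had picked Sra1-202 from these same samples, so its values, and those of the gene's other transcripts that are read against it, are a description and not independent evidence. The paper also measured Sra1 by RT-qPCR and describes the gene as downregulated in Pou4f3(Δ/+) cochleae. Which of these transcripts its primers cover was not examined here.

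The FPKM of Sra1-203 (ENSMUST00000173482) was 12.6, 12.04 and 12.2 in wildtype and 16.4, 16.9 and 16.4 in Pou4f3(Δ/+). All 3 Pou4f3(Δ/+) libraries were above all 3 wildtype libraries, with means of 12.3 ± 0.282 and 16.6 ± 0.300 (SD, n = 3). The edgeR log2 fold change on the counts, 150 to 253 per library, was 0.43 (SE 0.13, unadjusted p = 0.0171, adjusted p = 0.999 over 38347 transcripts). As a share of the FPKM listed under the gene, Sra1-203 held 32.9, 32.7 and 33.6% in wildtype and 44.5, 43.4 and 45.1% in Pou4f3(Δ/+), a difference of 11.3 percentage points (exact permutation test, two-sided p = 0.1). That is the smallest p that 3 against 3 samples allow.

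The FPKM of Sra1-202 (ENSMUST00000173202) was 5.03, 7.04 and 5.62 in wildtype and 2.46, 2.57 and 1.92 in Pou4f3(Δ/+). Again the groups did not overlap, here with Pou4f3(Δ/+) lower, at 2.32 ± 0.348 against 5.90 ± 1.03 (SD, n = 3). The counts behind these values were 86.5, 100 and 96.2 in wildtype and 43.4, 39.6 and 28.1 in Pou4f3(Δ/+). The edgeR log2 fold change was -1.35 (SE 0.27, unadjusted p = 0.0020, adjusted p = 0.841), and DESeq2 gave an adjusted p of 0.0289. Over all transcripts, edgeR called 0 of 38347 (0%), with 1586 (4.14%) at an unadjusted p under 0.05, and DESeq2 called 130 (0.339%).

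Its share was 13.2, 19.1 and 15.5% in wildtype and 6.67, 6.59 and 5.28% in Pou4f3(Δ/+), a difference of -9.74 points (exact permutation test, two-sided p = 0.1, the smallest possible). Added together, Sra1-202 and Sra1-203 had 17.6, 19.1 and 17.8 FPKM in wildtype and 18.9, 19.5 and 18.3 in Pou4f3(Δ/+). The sum overlapped between genotypes (exact permutation test, two-sided p = 0.3), while Sra1-202 made up 28.5, 36.9 and 31.5% of it in wildtype and 13.0, 13.2 and 10.5% in Pou4f3(Δ/+). The groups parted in this split and overlapped in the sum.

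Sra1-201 had 11.0, 8.47 and 9.10 FPKM in wildtype and 10.4, 9.83 and 9.03 in Pou4f3(Δ/+), and the groups overlapped. Sra1-204 had 2.66, 2.57 and 2.53 FPKM in wildtype and 2.61, 2.57 and 2.24 in Pou4f3(Δ/+). Sra1-205, another retained intron form, was listed above 0 in wildtype replicate 4 only, at 0.42 FPKM from 2 counts. That is below the floor of 3 counts, so a difference was not detectable at this depth. The last listed transcript, ENSMUST00000001415, belongs to the neighbouring gene Apbb3 in GENCODE M21. It had 6.97, 6.25 and 6.84 FPKM in wildtype and 4.99, 7.08 and 6.75 in Pou4f3(Δ/+), and without it the Sra1 sum of the wildtype libraries was 30.4 ± 0.911 FPKM and that of Pou4f3(Δ/+) 31.1 ± 1.33 (SD, n = 3, exact permutation test, two-sided p = 0.5). Of that smaller sum, Sra1-204 held 8.51, 8.42 and 8.59% in wildtype and 8.19, 8.06 and 7.57% in Pou4f3(Δ/+), so that its shares too did not overlap (exact permutation test, two-sided p = 0.1), by a difference of -0.56 points, while those of Sra1-201 still overlapped.

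**Figure D2:**
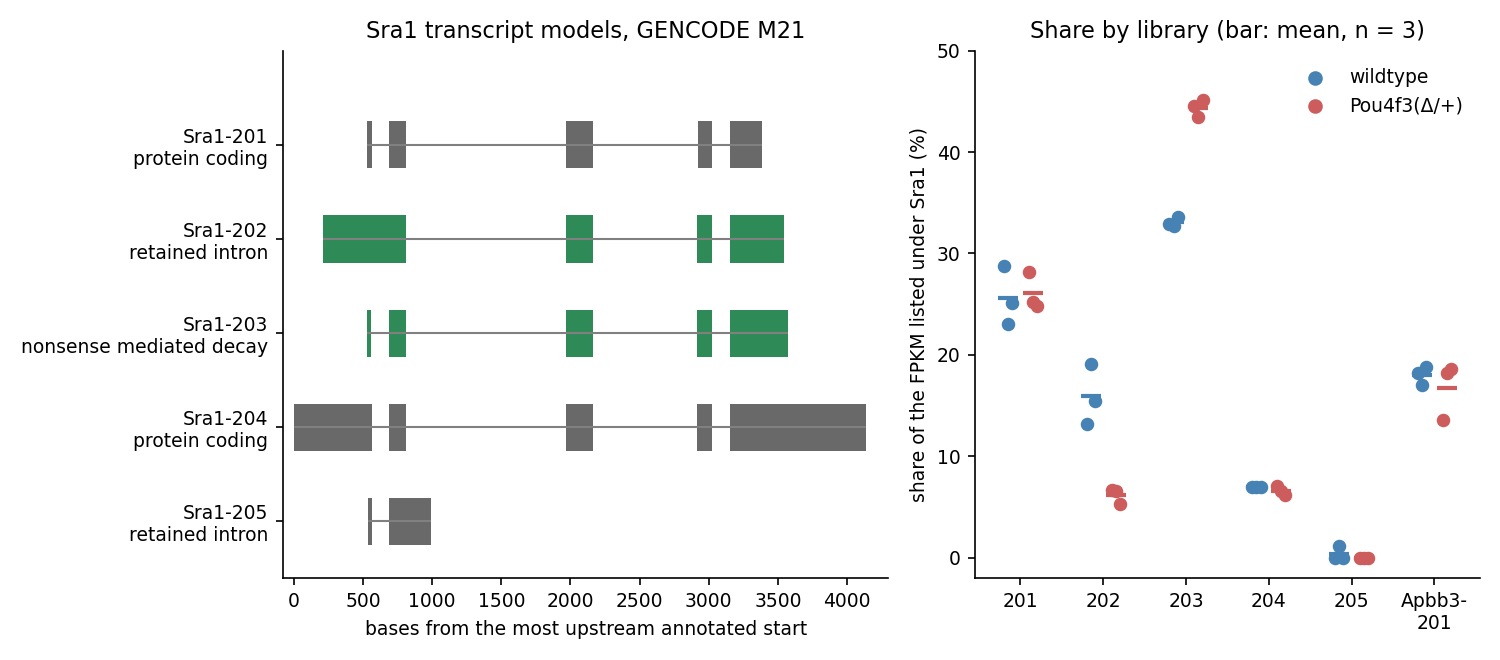
Left, exons (boxes) of the 5 transcripts annotated to Sra1, drawn 5′ to 3′ against distance in bases from the most upstream annotated start. Right, share of the FPKM listed under Sra1 (%) for each of the 6 listed transcripts in each library, with bars at group means (n = 3). Sra1-203 lay at 43.4 to 45.1% in Pou4f3(Δ/+) and 32.7 to 33.6% in wildtype, and Sra1-202 lay the other way.

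The models of the 2 transcripts differ at the 5′ end of the gene. In GENCODE M21, Sra1-202 keeps the first intron of Sra1-201, 118 bases from 36670130 to 36670247, and starts further upstream, with 322 bases from 36670287 to 36670608 that Sra1-203 lacks. Sra1-203 has 26 bases that Sra1-202 lacks, at its 3′ end, and the pair share 845 bases. No base of Sra1-203 or of Sra1-201 is in that transcript alone among those listed, so their counts rest on how reads over shared exons, and the joins between them, were divided. The length implied by count and FPKM was 997 bases for Sra1-202 against 1299 in GENCODE M21, so the model behind its values was 302 bases shorter, and the one behind Sra1-204 was longer, than drawn in the plot of Sra1 transcripts.

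Across all genes, the test of transcript usage asks whether the transcripts of a gene changed unequally. By edgeR's F test over the transcripts of a gene, 50 of 8998 genes (0.556%) passed, and Sra1 was among them (unadjusted p = 7.84e-05, adjusted p = 0.0168). On simulated data in which no transcript changed, this F test called 27 of 8475 genes, more than its threshold allows. In the deposited data 449 of the 8998 genes (4.99%) had an unadjusted p under 0.05. The adjusted p of this test may therefore be too small. Of the 7 genes of the 9 with 2 or more tested transcripts, Sra1 alone passed in this test. Ncoa2 passed without wildtype replicate 4 (adjusted p = 0.0398). Fkbp5 and Esr1 each had 1 tested transcript and so gave no value. By the Simes combination of the single transcripts, which called 54 genes (0.6%), Sra1 did not pass (adjusted p = 1.00); the single-transcript tests had log2 values against the rest of the gene of -1.32 for Sra1-202 (unadjusted p = 0.0534) and 0.46 for Sra1-203 (unadjusted p = 0.282).

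The size of the Sra1 differences changed little with any 1 library left out, while the F test call was lost without any of 5 of the 6. The difference in share ranged from 10.9 to 11.7 points for Sra1-203 and from -11.1 to -8.13 for Sra1-202, and the edgeR log2 fold change of Sra1-202 from -1.45 to -1.21. The adjusted p of usage was 0.0472 without Pou4f3(Δ/+) replicate 1 and 0.0531 to 0.234 without any one of the other 5, the highest without wildtype replicate 4. With the Apbb3 transcript counted elsewhere it was 0.0081, and with no filter on low counts it was 0.459.

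The glucocorticoid receptor gene Nr3c1 (ENSMUSG00000024431) also lies on chromosome 18, from 39410545 to 39519421 and 2.875 Mb from Pou4f3. Its FPKM was 24.5, 27.4 and 25.9 in wildtype and 26.7, 24.9 and 26.4 in Pou4f3(Δ/+). The groups overlapped, at 25.9 ± 1.45 and 26.0 ± 0.943 (SD, n = 3), and the log2 fold change was -0.0023 (SE 0.07, adjusted p = 0.993). With 2297 to 2847 counts per library it was the most deeply counted receptor, and 7.64% of the tested genes had a smaller range over the libraries. Nr3c1-204 held 76.1 to 94.2% of the gene's FPKM.

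Nr3c2, the mineralocorticoid receptor gene, was lower and more variable. Its FPKM was 5.34, 6.66 and 7.42 in wildtype and 4.96, 4.01 and 6.82 in Pou4f3(Δ/+). Replicates 1 and 2 of Pou4f3(Δ/+) were the lowest of the 6 libraries, and replicate 3 lay above 2 of the 3 wildtype libraries. The log2 fold change was -0.27 (SE 0.20, adjusted p = 0.742 by edgeR), and without replicates 1 and 2 it was 0.10. It was -0.12 without Pou4f3(Δ/+) replicate 2, -0.13 without wildtype replicate 5, -0.42 without wildtype replicate 3 and -0.49 without Pou4f3(Δ/+) replicate 3. Nr3c2-203 held 80.8 to 98.0% of the gene in every library.

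Esr1, which makes estrogen receptor alpha, was the lowest of the 9. Its FPKM was 2.66, 2.91 and 2.78 in wildtype and 3.13, 2.34 and 3.04 in Pou4f3(Δ/+), and the groups overlapped (log2 fold change 0.01, SE 0.13, adjusted p = 0.985). Esr1 had 215 to 300 counts per library, mostly in Esr1-204. Of the 9 steroid and related receptors examined beside these, 9 were tested and 0 were called, with 0 at an unadjusted p under 0.05. Their median log2 fold change was -0.0036, against -0.0027 over all genes tested. The smallest unadjusted p values belonged to Gper1, a membrane estrogen receptor (edgeR log2 fold change -0.17, adjusted p = 0.771), and Esrrg, an orphan receptor (log2 fold change -0.10, adjusted p = 0.834). Both moved with single libraries. Gper1 ran from -0.21 to -0.08 with 1 library left out, the latter without wildtype replicate 5. Esrrg had -0.0050 without Pou4f3(Δ/+) replicate 2 and -0.21 without Pou4f3(Δ/+) replicate 3.

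The p160 coactivators, which bind hormone-loaded receptors and recruit histone acetyltransferases, overlapped between genotypes in their sums. Ncoa1 had 11.7, 14.3 and 12.1 FPKM in wildtype and 14.3, 10.9 and 12.9 in Pou4f3(Δ/+) (log2 fold change 0.07, SE 0.09, adjusted p = 0.847). Ncoa2 had 14.3, 16.6 and 13.1 FPKM in wildtype and 15.98, 13.3 and 15.04 in Pou4f3(Δ/+) (log2 fold change -0.04, SE 0.09, adjusted p = 0.930). Within each genotype the libraries of both genes spread more widely than the group means differed.

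Ncoa3 had 23.3, 21.5 and 20.9 FPKM in wildtype and 28.9, 22.5 and 22.4 in Pou4f3(Δ/+). Replicate 1 of Pou4f3(Δ/+) was above all the others, and the remaining 5 libraries lay between 20.9 and 23.3. The log2 fold change was 0.08 (SE 0.10, adjusted p = 0.836). The 3′ end of Ncoa3 overlaps Sulf2 on the opposite strand, which had a mean FPKM of 10.7 in wildtype and 11.5 in Pou4f3(Δ/+). Whether the counting used strand is not given in the sources used here, so reads over the overlap cannot be assigned with certainty.

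Ncoa2 and Ncoa3 each had a transcript whose shares did not overlap between genotypes. Ncoa2-202, a protein coding form and the main one of its gene, held 70.6, 70.0 and 80.4% in wildtype and 61.8, 62.0 and 68.9% in Pou4f3(Δ/+). Pou4f3(Δ/+) was lower by 9.39 points on average, though its highest library came within about a point of the lowest in wildtype. In FPKM the same transcript overlapped, at 10.1, 11.6 and 10.5 in wildtype and 9.88, 8.26 and 10.4 in Pou4f3(Δ/+) (edgeR log2 fold change -0.18, SE 0.10, adjusted p = 0.999, and -0.11 without Pou4f3(Δ/+) replicate 2). Ncoa2-203, another protein coding form, varied widely, from 0 to 5.23% in wildtype and from 0.86 to 17.0% in Pou4f3(Δ/+). How reads were divided between it and Ncoa2-202 was not tested.

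Ncoa3-204 (chromosome 2 from 166060820 to 166066202) is a retained intron form of 554 bases. It held 13.9, 7.46 and 13.0% of Ncoa3 in wildtype and 20.3, 19.0 and 20.3% in Pou4f3(Δ/+). Every Pou4f3(Δ/+) library was above every wildtype library, also in FPKM, at 3.23, 1.60 and 2.72 in wildtype and 5.87, 4.29 and 4.55 in Pou4f3(Δ/+). These rest on few counts, 12.7 to 30.9 per wildtype library and 36.8 to 57.6 per Pou4f3(Δ/+) library, and the test gave a log2 fold change of 0.94 (SE 0.37, unadjusted p = 0.0425, adjusted p = 0.999). Neither Ncoa2 nor Ncoa3 passed the test of transcript usage (edgeR, unadjusted p = 0.282 and 0.260, both adjusted p = 1.00).

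Over the 9 genes, 18 transcripts held at least 10% of their gene in either genotype, and 4 of them (Sra1-202, Sra1-203, Ncoa2-202 and Ncoa3-204) had shares that did not overlap. Over all tested genes this held for 2489 of 27075 such transcripts (9.19%). With the means also at least 10 points apart, it held for 1 of the 18, Sra1-203, and for 1129 of the 27075 (4.17%). Of the 69 listed transcripts, 57 were above 0 in any library and 6 had shares that did not overlap, against 4579 of 63285 over all tested genes (7.24%). The 2 not yet named were Ncoa2-205 and Tsc22d3-206, both listed at 0 in wildtype and both resting on 1 to 4.65 counts in each Pou4f3(Δ/+) library, near or under the floor of 3 counts.

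**Figure D3:**
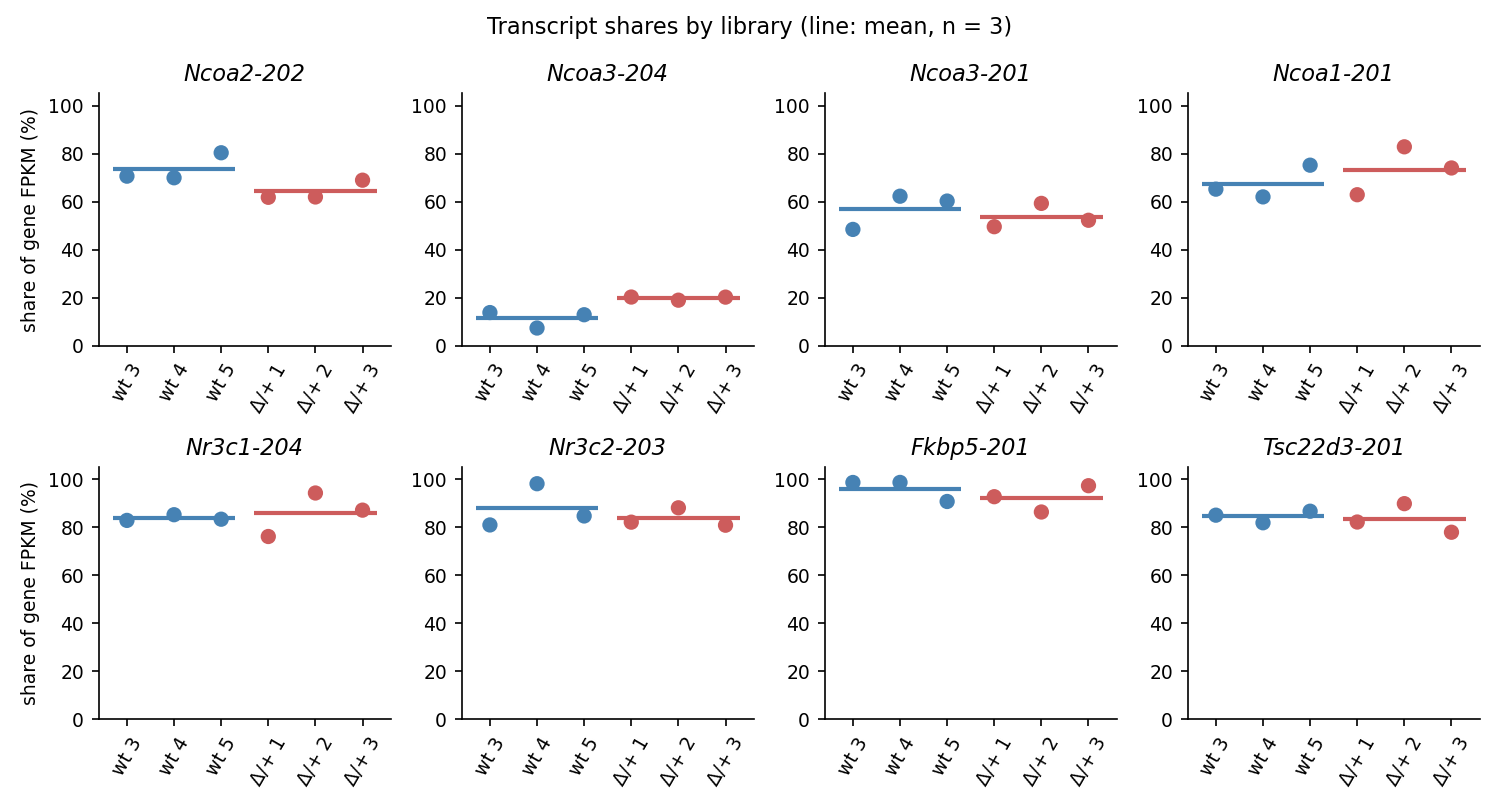
Share of the gene's FPKM (%, axis from 0) held by 8 transcripts of the coactivator, receptor and target genes in each library (wt, wildtype, blue; Δ/+, Pou4f3(Δ/+), red); lines are group means (n = 3). Ncoa2-202 and Ncoa3-204 had groups that did not overlap, and in the other 6 the groups overlapped.

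The 2 glucocorticoid targets were the most variable of the 9. Fkbp5 makes a cochaperone that lowers the receptor's affinity for hormone and is itself switched on by the receptor. Its FPKM was 15.98, 14.2 and 13.8 in wildtype and 22.4, 42.5 and 13.7 in Pou4f3(Δ/+). Replicates 1 and 2 of Pou4f3(Δ/+) were above all wildtype libraries and replicate 3 was below them, so the groups overlapped, at 14.6 ± 1.17 and 26.2 ± 14.8 (SD, n = 3). The log2 fold change was 0.81 (SE 0.33, unadjusted p = 0.0357, adjusted p = 0.643). Without replicate 2 it was 0.29 (adjusted p = 0.963), without replicate 3 it was 1.12 (adjusted p = 0.0607), and with replicates 1 and 2 both left out it was -0.11 (adjusted p = 1.00).

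Tsc22d3 makes GILZ, a leucine zipper protein that carries part of the anti-inflammatory action of glucocorticoids. Its FPKM was 86.9, 70.6 and 84.6 in wildtype and 88.9, 127 and 64.2 in Pou4f3(Δ/+). Replicate 2 of Pou4f3(Δ/+) was the highest of the 6 libraries and replicate 3 the lowest. The log2 fold change was 0.21 (SE 0.22, adjusted p = 0.815). It was -0.10 without replicate 2, 0.43 without replicate 3 and -0.37 without replicates 1 and 2. The main transcripts varied in share between libraries. Fkbp5-201 held 98.6, 98.6 and 90.7% of its gene in wildtype and 92.6, 86.3 and 97.2% in Pou4f3(Δ/+), lowest where the gene was highest. Tsc22d3-201 held 85.0, 81.8 and 86.6% in wildtype and 82.1, 89.8 and 77.9% in Pou4f3(Δ/+), highest and lowest where the gene was. Both overlapped between genotypes.

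Set against the wildtype mean on the log2 CPM scale, Fkbp5 in the Pou4f3(Δ/+) libraries differed by 0.61, 1.50 and -0.11, and Tsc22d3 by 0.14, 0.68 and -0.36. Nr3c2 had the opposite signs, at -0.35, -0.61 and 0.12. Over the 6 libraries, which share their depth and cell makeup between genes, Pearson's r was 0.885 between Fkbp5 and Tsc22d3, -0.889 between Fkbp5 and Nr3c2, and -0.774 between Tsc22d3 and Nr3c2. The range over the libraries was 1.63 for Fkbp5, with 93.9% of the tested genes below it, 1.04 for Tsc22d3 (83.1%) and 0.88 for Nr3c2 (77.6%).

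A list of 20 genes that glucocorticoids are known to induce was examined beside these, and 19 were tested. In the comparison of genotypes 0 were called and 0 had an unadjusted p under 0.05, while 15 had a positive and 4 a negative estimate, with a median log2 fold change of 0.23. Without Pou4f3(Δ/+) replicate 2, 8 were positive and 11 negative, with a median of -0.02. Without replicates 1 and 2, 2 were positive and 17 negative, with a median of -0.23 and 5 lower at an unadjusted p under 0.05, against 401 (2.21%) of 18106 genes tested in that fit. There replicate 3 is the lone Pou4f3(Δ/+) library, and the spread behind its p values comes from the 3 wildtype libraries alone. The direction of the list median turned with the libraries left out.

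By library, a description added after the values were seen, 15 of the 19 genes were highest in replicate 2 of Pou4f3(Δ/+), where 20.8% of all tested genes were highest. In replicate 3, 14 of the 19 were lowest, against 15.7% of all tested genes. The median difference of the list from the wildtype mean (log2 CPM) was -0.05, -0.10 and 0.13 in wildtype and 0.18, 0.69 and -0.22 in Pou4f3(Δ/+).

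Mt2, a metallothionein that binds zinc, had 115, 112 and 125 FPKM in wildtype and 186, 301 and 87.9 in Pou4f3(Δ/+) (edgeR log2 fold change 0.71, SE 0.35, adjusted p = 0.651). Hif3a, a hypoxia-inducible factor subunit, had 0.42, 0.66 and 0.37 FPKM in wildtype and 0.83, 1.55 and 0.34 in Pou4f3(Δ/+) (log2 fold change 0.98, SE 0.48, adjusted p = 0.649). Klf9, a transcription factor, had 25.2, 28.9 and 29.2 FPKM in wildtype and 35.3, 45.1 and 22.8 in Pou4f3(Δ/+). All 3 had the pattern of Fkbp5, with replicates 1 and 2 of Pou4f3(Δ/+) above wildtype and replicate 3 below it. Without replicate 2 the log2 fold changes were 0.21 for Mt2, 0.35 for Hif3a and 0.06 for Klf9, from 0.31 with all libraries. The highest with any 1 library left out were 1.065 for Mt2 and 1.381 for Hif3a. Without replicates 1 and 2 the values were -0.44 for Mt2 and -0.46 for Hif3a. Klf9 was named after its values were seen, as were the next pair. Ddit4, an inhibitor of mTOR signalling, had 18.2, 17.9 and 15.7 FPKM in wildtype and 18.5, 30.7 and 12.9 in Pou4f3(Δ/+). Per1, which is both a glucocorticoid target and a clock gene, had 17.4, 18.6 and 16.1 FPKM in wildtype and 15.8, 19.3 and 8.02 in Pou4f3(Δ/+), the last being the lowest.

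**Figure D4:**
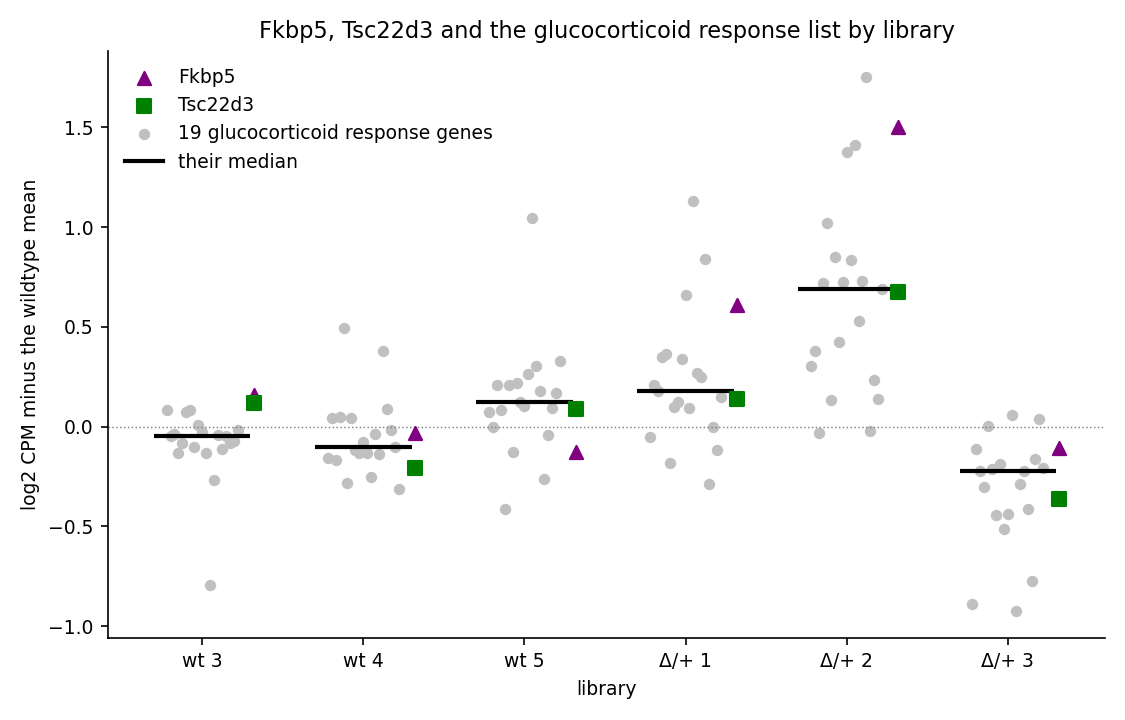
Difference in log2 CPM from the wildtype mean (dotted line at 0) in each library for Fkbp5 (triangles), Tsc22d3 (squares) and the 19 tested genes of the glucocorticoid response list (grey points), with the list median as a bar. Replicate 2 of Pou4f3(Δ/+) stood highest, with a list median of 0.69 and Fkbp5 at 1.50, and replicate 3 was lowest, with a list median of -0.22.

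The 2 libraries that were high for Fkbp5 were also high for B cell, T cell and erythroid markers. All 9 B cell markers had an unadjusted p under 0.05 and were higher in Pou4f3(Δ/+), against 3.5% of all genes tested. Their median log2 fold change was 0.88, and all 9 were above 0 in every library. Without replicates 1 and 2, 0 of the 9 were at that level and the median was 0.21. Summed T cell markers (5 of 5 tested) were 12.6 to 15.5 CPM in wildtype and 33.7, 44.0 and 10.1 in the Pou4f3(Δ/+) libraries, and their median log2 fold change was 1.34, and -0.54 without replicates 1 and 2. Summed erythroid markers (5 of 5) were 4434 to 5164 CPM in wildtype and 6619, 6850 and 5071 in Pou4f3(Δ/+), with a median of 0.37, and 0.01 without those replicates. Macrophage markers (6 of 6) had 548 to 600 CPM in wildtype and 593, 673 and 528 in Pou4f3(Δ/+), so that only replicate 2 was above wildtype. Neutrophil markers (7 of 7) had 12010 to 14212 CPM in wildtype and 11585, 14023 and 14010 in Pou4f3(Δ/+), with replicate 1 the lowest of the 6 libraries and replicate 2 within the wildtype range. Summed neuron markers (5 of 5) ran the other way, at 1432 to 1578 CPM in wildtype and 1304, 1182 and 1592 in Pou4f3(Δ/+). The sums of hair cell markers (10 of 10; 678 to 711 CPM in wildtype and 594, 599 and 706 in Pou4f3(Δ/+)), supporting and epithelial cell markers (6 of 6; 545 to 679 against 471, 438 and 633) and Schwann cell markers (5 of 5; 1776 to 2092 against 1539, 1575 and 2088) were below every wildtype library in replicates 1 and 2. A sum is led by its most abundant genes, such as Calb2 with 282 to 318 FPKM in wildtype and 245, 234 and 306 in Pou4f3(Δ/+). The median difference of these 3 lists from the wildtype mean (log2 CPM) was below wildtype in replicate 1, at -0.11, -0.29 and -0.24, but within the wildtype range in replicate 2, at -0.01, 0.07 and -0.10. For neurons this median was below wildtype in both, at -0.22 and -0.37. Fibrocyte markers (5 of 5), whose sum was 5901 to 7794 CPM in wildtype and 5622, 5996 and 5938 in Pou4f3(Δ/+), also had a median below wildtype in both, at -0.20 and -0.33. Stria markers (7 of 7), from the lateral wall, had 1285 to 1400 CPM in wildtype and 1160, 1105 and 1387 in Pou4f3(Δ/+), with replicates 1 and 2 below every wildtype library. All 7 had a negative estimate (median -0.17, and -0.14 without replicates 1 and 2). Kcnq1 and Kcne1 were at an unadjusted p under 0.05 and had groups that did not overlap. Of all genes tested, 4.14% were lower at that level and 12.1% did not overlap in FPKM. The part of these cells in the values of Fkbp5, Tsc22d3 and Nr3c2 was not tested.

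The genes most like Fkbp5 in pattern, among 11955 compared by Pearson's r of log2 CPM over the 6 libraries, were Egln2 (r = 0.996), Hba-a1 (0.994) and Zfp429 (0.994). Those most like Tsc22d3 were Med11 (0.997), Cdk11b (0.994) and B4galt3 (0.991). For Sra1 they were Fcer1g (0.994), Trmt44 (0.991) and Tlr2 (0.982). With 6 libraries and this many genes, coefficients of that height are to be read as a description. Hba-a1, an alpha globin gene, had 3969, 3758 and 3522 FPKM in wildtype and 4477, 5275 and 3823 in Pou4f3(Δ/+).

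The glucocorticoid receptor binds as a dimer to a palindrome, and a few promoter stretches are shown to let the letters be seen beside the values. The motif searched was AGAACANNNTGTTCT and its arm AGAACA, which reads TGTTCT on the other strand. Each match to the full motif also holds the arm. The RefSeq promoter windows (GRCm38.p6) ran from 250 bases before to 50 after a start. Of 32851 such windows, 3 (0.00913%) held the full motif and 6233 (19%) held an arm. Of the 9 genes, 5 had windows, 8 in all, with 0 full motifs and 2 windows with an arm, in Tsc22d3 and Ncoa1. Of the glucocorticoid response list, 16 genes had 26 windows, of which 1 held the full motif and 5 an arm. The capitals mark the match, and both stretches read 5′ to 3′ on the gene's strand.
Sgk1, chr10:21993694-21993723, plus strand: tgcggaaAGAACAGAATGTTCTcggagatt
Tsc22d3, chrX:140600690-140600719, minus strand: ccgcattcgacaTGTTCTaagttctgagac
The Sgk1 match lies 189 bases before 1 of the gene's 6 RefSeq starts, and the other 5 windows held no full motif. The Tsc22d3 arm lies 185 bases before the most upstream of 3 starts, which is the one nearest to Tsc22d3-203, a form with 2.52 to 6.03% of the gene. The other 2 windows (chrX:140542619-140542918 and chrX:140548522-140548821) held no arm. Neither covers the start of the main form Tsc22d3-201 at 140543187, so the promoter of that form was not searched. Sgk1, a kinase that raises sodium channel activity, had 59.7, 65.1 and 57.0 FPKM in wildtype and 70.1, 74.9 and 53.2 in Pou4f3(Δ/+), again with replicates 1 and 2 above and replicate 3 below the wildtype libraries. Its log2 fold change was 0.17, and 0.06 without replicate 2 and -0.11 without replicates 1 and 2. The highest value with any 1 library left out was 0.30. The Fkbp5 window (chr17:28486100-28486399) held neither form, which says only that these letters are not in that window.

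Genes that work with the receptors gave no call in any group. Of 6 partners of SRA RNA, 0 were called and 0 had an unadjusted p under 0.05, with a median log2 fold change of 0.03. The smallest p values were those of Ddx5, an RNA helicase (edgeR log2 fold change 0.08, adjusted p = 0.815), and Pus3, a pseudouridine synthase (0.10, adjusted p = 0.859). Without replicates 1 and 2 of Pou4f3(Δ/+), all 6 partners, these included, had a negative estimate, with a median of -0.13. Of 14 coregulators, 0 were called and 1 was higher at an unadjusted p under 0.05, against 3.5% of all genes tested, with a list median of 0.06. That gene was Smarca4, the ATPase of the BAF chromatin remodeller, with 34.0, 33.9 and 32.7 FPKM in wildtype and 41.1, 39.7 and 36.1 in Pou4f3(Δ/+), where the groups did not overlap (log2 fold change 0.21, SE 0.08, unadjusted p = 0.0241, adjusted p = 0.643). Nrip1, a corepressor, followed at 0.23 (unadjusted p = 0.0585). Without replicates 1 and 2 of Pou4f3(Δ/+), Smarca4 had 0.09 and Nrip1 0.02, and without replicate 1 alone Nrip1 had 0.15. In replicate 1 of Pou4f3(Δ/+), 11 of the 14 coregulators had their highest value, against 17.1% of all tested genes.

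Of 12 receptor chaperones, 0 were called and 0 had an unadjusted p under 0.05, with a median log2 fold change of 0.07. Bag1 (edgeR log2 fold change -0.15, adjusted p = 0.649) and Stub1 (-0.17, adjusted p = 0.678), which direct chaperone clients to other fates, had the smallest p values, and Stub1 had -0.08 without Pou4f3(Δ/+) replicate 1. Their highest values were in replicate 1 of Pou4f3(Δ/+) for 9 of the 12 and their lowest in replicate 3 for 8 of the 12. Hspa8, the constitutive Hsp70, had 1282 FPKM in each wildtype library and 1448, 1367 and 838 in the Pou4f3(Δ/+) libraries. With replicate 3 as the lone Pou4f3(Δ/+) library, all 12 had a negative estimate, 6 of them at an unadjusted p under 0.05, with a median of -0.23. Of all genes tested in that fit 2.21% were lower at that level, and its spread again comes from the wildtype libraries.

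Of 8 genes of mineralocorticoid-regulated sodium transport, 0 were called and 0 had an unadjusted p under 0.05 (median log2 fold change -0.09). Nedd4l, the ubiquitin ligase that removes sodium channels, had 5.50, 5.70 and 6.09 FPKM in wildtype and 5.26, 5.31 and 5.0 in Pou4f3(Δ/+), where the groups did not overlap (log2 fold change -0.15, unadjusted p = 0.103). Of 8 estrogen response genes, 0 were called and 2 were lower at an unadjusted p under 0.05 (median -0.04). Of all genes tested, 4.14% were lower at that level and 12.1% had groups that did not overlap in FPKM. Cxcl12, a chemokine, had 455, 446 and 427 FPKM in wildtype and 370, 344 and 354 in Pou4f3(Δ/+), with no overlap (log2 fold change -0.26, SE 0.08, unadjusted p = 0.0122, adjusted p = 0.643). Ccnd1, cyclin D1, had 10.8, 12.8 and 13.8 FPKM in wildtype and 10.3, 8.74 and 9.58 in Pou4f3(Δ/+), also with no overlap (log2 fold change -0.36, SE 0.11, unadjusted p = 0.0110, adjusted p = 0.643). Osteoblast markers (7 of 7 tested), which mark the bone around the cochlea, had 3 genes lower at an unadjusted p under 0.05, against the same 4.14%. They had 5 negative and 2 positive estimates, and a median of -0.21, or -0.10 without Pou4f3(Δ/+) replicates 1 and 2. Their summed level was 1670 to 2432 CPM in wildtype and 1533, 1740 and 1401 in Pou4f3(Δ/+). The 3 were Sp7 (log2 fold change -0.63), Col1a1 (-0.75) and Phex (-0.22), and the groups of Sp7 and Col1a1 did not overlap in FPKM. Their part in the values of Cxcl12 and Ccnd1 was not tested.

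Of 11 genes of steroid synthesis and conversion, 6 were tested and 0 were called (median log2 fold change -0.09). At an unadjusted p under 0.05, 1 was lower, against 4.14% of all genes tested. That was Akr1c14, a hydroxysteroid dehydrogenase, with 0.83, 0.84 and 0.79 FPKM in wildtype and 0.26, 0.40 and 0.83 in Pou4f3(Δ/+), so that replicate 3 lay at the wildtype level. Its log2 fold change was -0.96, and -0.30 without replicates 1 and 2. Star, which brings cholesterol into mitochondria, had 1.39, 1.47 and 1.48 FPKM in wildtype and 1.82, 1.80 and 2.01 in Pou4f3(Δ/+), with no overlap (log2 fold change 0.35, SE 0.15, unadjusted p = 0.0525, adjusted p = 0.643).

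Of the 9 pathway lists, the one with the most genes at an unadjusted p under 0.05 was that of the circadian clock, whose genes are tuned by glucocorticoids in many tissues. Of 14 genes, 0 were called, 2 were higher and 5 were lower at that level, against 600 (3.5%) higher and 709 (4.14%) lower of all genes tested, and the list median was -0.18. Per2, a repressor of the clock, had 5.55, 8.07 and 6.28 FPKM in wildtype and 4.53, 4.70 and 4.54 in Pou4f3(Δ/+) (log2 fold change -0.53, SE 0.13, unadjusted p = 0.0034, adjusted p = 0.643). Arntl, which makes the activator BMAL1, had 5.66, 5.22 and 4.45 FPKM in wildtype and 8.96, 10.2 and 6.34 in Pou4f3(Δ/+) (log2 fold change 0.69, SE 0.20, unadjusted p = 0.0066, adjusted p = 0.643). Neither gene overlapped between genotypes. Without replicates 1 and 2 of Pou4f3(Δ/+) the values were -0.57 for Per2 and 0.22 for Arntl. Npas2 was the other gene with a higher value, and Per3, Cry2, Tef and Bhlhe41 the others with a lower one, named here after their values were seen. The paper does not give the hour at which the cochleae were collected, and no cause of these clock gene values was tested. Without replicate 2 of Pou4f3(Δ/+), 1 was higher and 2 were lower at that level, with a median of -0.20, against 1.73% higher and 2.48% lower of all genes tested. Without replicates 1 and 2, 0 were higher and 2 lower, with a median of -0.07, against 1.4% and 2.21%.

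**Figure D5:**
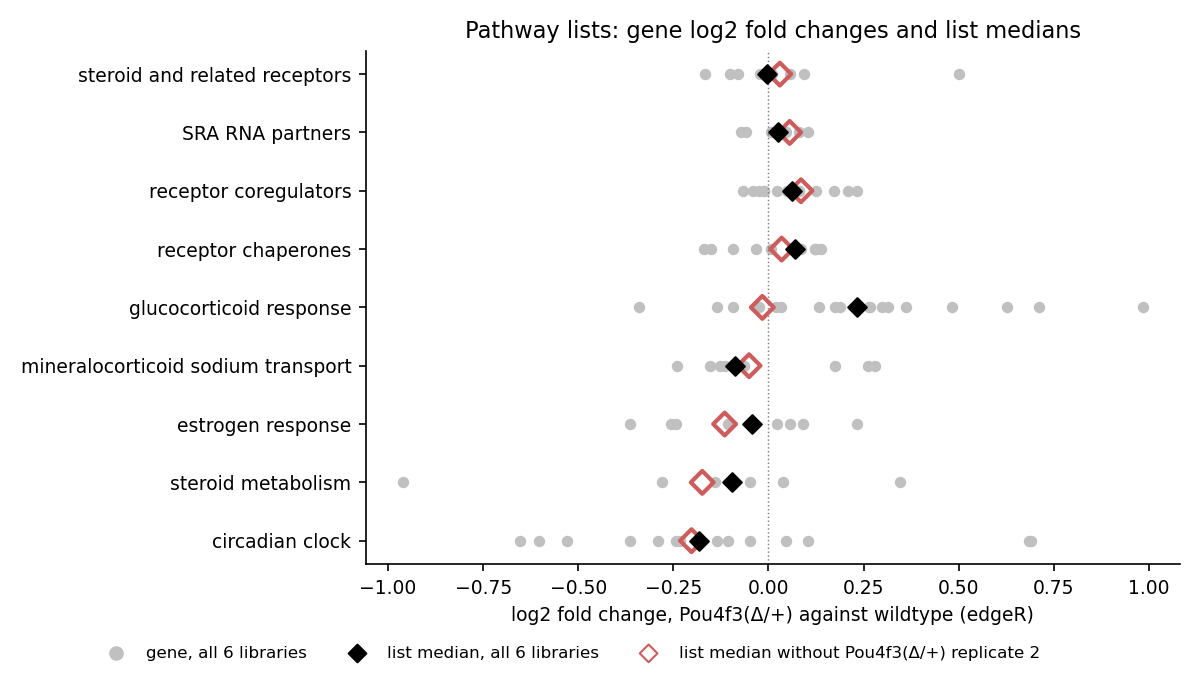
Log2 fold change of Pou4f3(Δ/+) against wildtype (edgeR) for each tested gene (grey points) of 9 pathway lists, with the list median over all 6 libraries (black diamonds) and without Pou4f3(Δ/+) replicate 2 (open diamonds). The glucocorticoid response median was 0.23 with all libraries and -0.02 without that one, while the circadian clock median was -0.18 and -0.20.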

How the data were processed

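The libraries were paired-end reads of cochlear RNA made with a poly(A) or rRNA removal kit. The authors deposited for each sample a table with an expected count per transcript, which is an estimate that need not be whole (82.2% of those above 0 were not) and is not normalized. In the same tables the authors deposited an FPKM value per transcript, scaled to transcript length and counted fragments. The submitters' processing notes name DESeq2 and the build mm8; the aligner, the counting program and the annotation are not given in the sources used here. Coordinates and transcript types are from GENCODE M21 (GRCm38), in which 99.5% of the listed transcripts were found, 4.59% of these under another symbol. Ontology and description columns were not used.

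Values were summed over the transcripts of a symbol, and expected counts were rounded. Genes and transcripts were tested with edgeR 4.0.16 in R 4.3.3 (filterByExpr with a minimum count of 10 and a minimum total of 15, TMM, quasi-likelihood test, Benjamini-Hochberg over all features tested, adjusted p under 0.05), and transcript usage with edgeR's diffSpliceDGE. Standard errors are the log2 fold change over the square root of F. Log2 CPM had a prior count of 2. Shares were compared with a two-sided exact permutation test in SciPy 1.17.1. Scripts were tested on simulated data. Alternatives were DESeq2 1.42.0, its size factors, no filter, a mean FPKM of at least 1, limma 3.58.1 on log2(FPKM + 0.5), with pseudocounts of 0.1 and 1, shares from counts, and samples left out.

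The members and lists were chosen with earlier results of these data known. Named were the 9 genes; their transcripts with at least 10% of the gene or a difference of 10 points, and all of Sra1; the 2 genes with the smallest p in each list that had none called; genes overlapping a member; and the 3 genes most like Sra1, Fkbp5 and Tsc22d3. Lists were described by counts and medians. The floor of 3 counts allows for counting error alone. At these depths 3 counts per kilobase of transcript are 0.170 to 0.210 FPKM.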

Additional observations from a re-analysis of the deposited data

How the results depend on the processing

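Of 127 alternative values of the 9 gene log2 fold changes, 93 kept the direction, 34 turned it and 0 passed the threshold; the cause was not tested. For Sra1 the value was 0.0103, 0.0104 and 0.0101 with limma at pseudocounts of 0.5, 0.1 and 1, 0.0005 with the Apbb3 transcript out, and -0.0838 to 0.0029 with 1 library left out. For Nr3c1 it was 0.0009 with DESeq2, 0.0007 with its size factors, 0.0013 without a filter, 0.0011 at a mean FPKM of at least 1, 0.0050, 0.0051 and 0.0049 with limma, and -0.0567 to 0.0382 with 1 library left out. With limma, in the same order, Ncoa1 had -0.0055, -0.0057 and -0.0052, and Ncoa2 had 0.0124, 0.0128 and 0.0119. Of the named list genes, also with limma in that order, Akr1c14 had -0.4458, -0.7388 and -0.3003, and Bag1 had -0.0778, -0.0782 and -0.0774. With 1 library left out, Nr3c2 ranged from -0.4906 to -0.1221, Esr1 from -0.0512 to 0.1048, Ncoa1 from -0.0033 to 0.1333, Ncoa2 from -0.0870 to 0.0462, Ncoa3 from -0.0271 to 0.1599, Tsc22d3 from -0.0972 to 0.4291 and Pus3 from -0.0312 to 0.2266. Without both Pou4f3(Δ/+) libraries 1 and 2, where the remaining one is assumed to vary like the others, Nr3c2 had 0.0974, Ncoa3 -0.0817, Fkbp5 -0.1096, Tsc22d3 -0.3684, Ddx5 -0.0174, Esrrg 0.1063, Hif3a -0.4564, Mt2 -0.4399, Pus3 -0.1616 and Sgk1 -0.1087, and list medians were -0.1329 for SRA partners, -0.0144 for coregulators, -0.2302 for chaperones and -0.2332 for the glucocorticoid response. Without replicate 2 alone, the receptor and glucocorticoid medians were 0.0300 and -0.0161, and those of SRA partners, chaperones, sodium transport, estrogen response and steroid metabolism were 0.0558, 0.0348, -0.0510, -0.1151 and -0.1740. The named list genes kept direction and call in 241 of 250 alternatives and turned in 7, and Arntl and Mt2 passed without Pou4f3(Δ/+) replicate 3 (adjusted p = 0.0331 and 0.0386). Genes called were 64 with DESeq2, 9 without a filter, 1 with limma at 0.1, 6 without libraries 1 and 2, and 0 to 193 with 1 library left out (193 without Pou4f3(Δ/+) replicate 3, 3 without wildtype replicate 4). Transcripts called were 130, 1 and 2 under the first 3 of these and 0 to 3 with 1 library left out. Genes called for usage were 21 at a mean FPKM of at least 1, 166 without libraries 1 and 2, and 80 to 115 with 1 library left out. The adjusted p of Sra1 usage was 0.459 without a filter, 0.174 without libraries 1 and 2, 1.00 by Simes and 0.0472 to 0.234 with 1 library left out. The difference in Sra1-203 share was 9.37 points on counts and 12.9 with the Apbb3 transcript out. Of 56 alternatives for the 4 named transcripts, 55 kept direction and call, and Sra1-202 passed with DESeq2. The Apbb3 alternative and the list values without libraries were chosen after seeing the data. No paired analysis was possible because the groups share fewer than 2 replicate numbers. Depth limits Sra1-205, Ncoa2-205 and Tsc22d3-206, near the floor of 3 counts.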
